A study of Mus musculus with 2 samples.

Results

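The transcripts of 6 receptors of the signalling lymphocyte activation molecule (SLAM) family, Slamf1, Slamf6, Slamf7, Ly9, Cd48, and Cd84, and of 2 adaptors with an SH2 domain, Sh2d1a and Sh2d2a, were examined in mature thymocytes. These 8 genes were taken by symbol from the 48321 genes counted in both libraries, whatever their level, and all 8 were found and passed the filter on low counts. The study asked what becomes of thymocytes selected by class I MHC when the CD8 co-receptor cannot be turned off. RNA-seq of sorted CD4- mature thymocytes was performed on 2 libraries of MHC-II0:CD8ab Tg mice on a C57Bl/6 background. Both libraries carry the same alleles: a null allele of the class II gene I-Ab, cDNAs for the CD8 alpha and beta chains in the Rosa26 locus, a Cd8 locus without coding regions for either chain and with a human CD2 cDNA in its place, and Cre driven by Cd4 that removes a stop cassette in front of the CD8 cDNAs. The sample titles call the cells CD4-CD8- and the cell type field calls them CD8+. Neither the age and sex of the mice nor whether the libraries came from separate mice is given in the labels, but their X- and Y-linked transcripts, given below, show that they did not come from the same mouse. Those transcripts have the pattern of a male in replicate 1 and of a female in replicate 2. Sex, other differences between mice, and technical differences therefore cannot be told apart in any difference between the libraries. There is 1 group with n = 2 and no control library was analysed here, so levels are described and no difference between genotypes was tested.

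SLAM receptors are immunoglobulin-like proteins of the blood cell surface, and most of them bind another copy of themselves on a neighbouring cell. Their cytoplasmic tails carry tyrosine motifs that, once phosphorylated, are bound by the SH2 domain of SAP, the product of Sh2d1a, which brings in the kinase Fyn, or by phosphatases when SAP is absent. In the thymus, contacts between cortical thymocytes through Slamf1 and Slamf6, together with SAP and Fyn, are required for invariant natural killer T (iNKT) cells, which are selected by CD1d and express the transcription factor PLZF.

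The coding sequences show where such motifs lie in the receptors. The motif searched was threonine, any residue, tyrosine, any 2 residues, and valine or isoleucine, in the proteins translated from the GENCODE M21 transcripts of GRCm38, and it was found at least once in 7.80% of 21720 genes and at least 2 times in 0.594%. Slamf1, Slamf6, Ly9, and Cd84 held 2 matches each and Slamf7 held 1, all in the last part of the protein, at 80.5% to 97.7% of its length. The bases coding for these 9 matches are shown from 5′ to 3′ on the strand of the gene, with the tyrosine codon in capitals, because motifs of this kind are what SAP is known to bind.
Slamf1, tyrosine 288 of 343 residues, chr1:171792339-171792356, plus strand: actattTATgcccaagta
Slamf1, tyrosine 335, chr1:171799588-171799605, plus strand: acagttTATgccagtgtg
Slamf6, tyrosine 295 of 331 residues, chr1:171939437-171939454, plus strand: actgtgTATgcacaagtc
Slamf6, tyrosine 319, chr1:171941664-171941681, plus strand: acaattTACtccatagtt
Slamf7, tyrosine 302 of 333 residues, chr1:171636327-171636344, minus strand: acatttTATtccactgtg
Ly9, tyrosine 587 of 654 residues, chr1:171593912-171593929, minus strand: actccaTATgataaagtg
Ly9, tyrosine 625, chr1:171593438-171593455, minus strand: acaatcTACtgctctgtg
Cd84, tyrosine 265 of 329 residues, chr1:171884605-171884622, plus strand: acagtaTATgctgtagtt
Cd84, tyrosine 300, chr1:171885601-171885618, plus strand: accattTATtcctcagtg

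Each of these 9 stretches lies within a single coding exon. Cd48, which is held in the membrane by a lipid anchor and has no cytoplasmic tail, had 1 match at tyrosine 107 of 240 residues, 44.6% along the protein, and the adaptors Sh2d1a and Sh2d2a had none. A match is a description of the letters and not evidence of binding. Annotated isoforms differed in the number of matches, which ranged from 1 to 2 over 3 complete coding transcripts of Slamf6, from 0 to 1 over 5 of Slamf7, and from 0 to 2 over 4 of Cd84, and counts per gene do not tell these isoforms apart.

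The 6 receptor genes lie side by side on chromosome 1, within 364.5 kb between the start of Ly9 (chr1:171588624-171607410, minus strand) and the end of Slamf6 (chr1:171917515-171953170, plus strand). Slamf7 (chr1:171632403-171653035) is on the minus strand like Ly9, and Cd48 (chr1:171682009-171705258), Slamf1 (chr1:171767127-171801184), and Cd84 (chr1:171839697-171890718) are on the plus strand. The annotated span of another family member, Cd244 (chr1:171559193-171609746, plus strand), covers Ly9 on the opposite strand, but they share 0 bases of exon. The adaptor genes are elsewhere, Sh2d2a at chr3:87846755-87855722 and Sh2d1a at chrX:42502453-42529330, both on the plus strand. Coordinates are those of GRCm38, the build the study names as mm10, and all 8 genes are annotated as protein-coding.

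**Figure D1:**
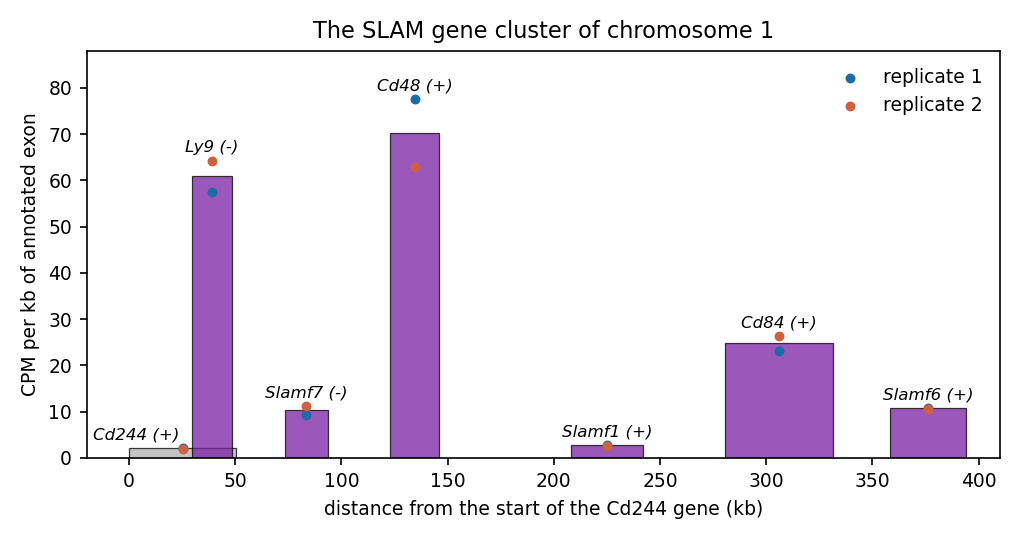
Map of the SLAM gene cluster on chromosome 1, drawn to scale as distance in kb from the start of Cd244 (grey), with the height of each bar giving the mean level in CPM per kb of exon (linear axis from 0), points for the 2 libraries, and the strand in brackets. Genes at 60.9 and 70.2 per kb (Ly9 and Cd48) lie in the same cluster as Slamf1 at 2.70 per kb.

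The libraries held 16732644 and 16245849 counts on genes. Counts were expressed as CPM, the share of all counts on genes scaled so that a library sums to 1000000, in which the floor of 3 counts corresponds to 0.179 CPM in replicate 1 and 0.185 CPM in replicate 2, and were divided by the kilobases of annotated exon wherever genes were compared with each other (CPM per kb). Intervals are 95% Wilson intervals of a library's share of counts, and they hold the error of counting alone, because the reads carry no molecular identifiers and several may stem from 1 molecule. The libraries stood apart at X- and Y-linked genes chosen after their values were seen, with 34 and 25266 counts on Xist, which is made from the inactive X chromosome, and 2450 and 0 on the Y-linked Ddx3y. Of the altered genes, Cd8a had 2647 and 2784 counts, Cd8b1 12969 and 12762, and H2-Ab1, the class II beta gene, 395 and 292. Since counts are per gene, reads of a CD8 cDNA and of the endogenous locus, or of an intact and a disrupted class II gene, cannot be told apart. All 7 mature T cell markers were over the floor, from 52.2 per kb for Cd5 to 446 per kb for Trac.

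Ly9, a receptor that binds itself and is known for restraining the number of innate-like T cells in the thymus, had 3182 counts in replicate 1 and 3452 in replicate 2. These are 190.2 CPM (183.7 to 196.9) and 212.5 CPM (205.5 to 219.7), with a mean of 201 ± 15.8 CPM (SD, n = 2). The 2 intervals did not overlap, and replicate 2 was the higher. Per kb of its 3.307 kb of exon, Ly9 stood at 57.5 and 64.3, above 96.0% of the 15394 genes ranked.

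Cd84, another self-ligand, known for adhesion between T and B cells and in platelets, had 2430 and 2692 counts. Its level was 145 CPM (139.6 to 151.1) in replicate 1 and 166 CPM (159.6 to 172.1) in replicate 2, again higher in replicate 2 with intervals apart. Per kb, Cd84 stood at 23.2 and 26.4, above 87.7% of the genes ranked. The ratio of Ly9 to Cd84 per kb was 2.46 ± 0.0364 (SD, n = 2), so that both moved by nearly the same factor between the libraries.

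Slamf6 and Slamf1 are the self-ligands through which cortical thymocytes instruct iNKT precursors. Slamf6 had 1956 and 1863 counts, which are 117 CPM (111.8 to 122.2) in replicate 1 and 115 CPM (109.6 to 120.002) in replicate 2. Its intervals overlapped, and its mean of 116 ± 1.57 CPM had the smallest relative spread of the 8 genes. Slamf6 has the longest annotated exon length of the 8, 10.832 kb, and stood at 10.8 and 10.6 per kb, above 71.7% of the genes ranked.

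Slamf1, the founding receptor of the family, was the lowest of the 8 genes, with 291 and 258 counts, 17.4 CPM (15.5 to 19.5) in replicate 1 and 15.9 CPM (14.1 to 17.9) in replicate 2. Both libraries were far over the floor and their intervals overlapped. Per kb, Slamf1 stood at 2.83 and 2.58, above 41.9% of the genes ranked. Slamf6 exceeded Slamf1 per kb by a ratio of 3.96 ± 0.201 and Ly9 exceeded it by 22.6 ± 3.22 (SD, n = 2), in both libraries.

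Slamf7, a self-ligand best known from natural killer (NK) and plasma cells, had 717 and 829 counts, 42.9 CPM (39.8 to 46.1) in replicate 1 and 51.0 CPM (47.7 to 54.6) in replicate 2. Replicate 2 was the higher and the intervals did not overlap. Per kb, Slamf7 stood at 9.36 and 11.1, above 70.6% of the genes ranked. Slamf7 shares 423 bases, or 9.24% of its exon length, with the antisense gene Gm37787, which had 48 and 57 counts itself. The strand setting of the counting is not given in the sources used here, and without strand the reads of these genes cannot be told apart. If no read in the shared bases was counted, the level of Slamf7 over the unshared bases was 10.3 and 12.3 per kb.

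Cd48 differs from the other receptors in its lipid anchor and in binding other proteins, Cd2 and Cd244. It had 1543 and 1213 counts, 92.2 CPM (87.7 to 96.9) in replicate 1 and 74.7 CPM (70.6 to 79.0) in replicate 2. It was thus lower in replicate 2, opposite to Ly9, Cd84, and Slamf7. With only 1.189 kb of exon it stood at 77.6 and 62.8 per kb, above 96.7% of the genes ranked.

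The partners of Cd48 were at very different levels. Cd2, an adhesion receptor of T cells, had 6014 and 5833 counts and stood at 206 per kb in both libraries. Cd244, the receptor also called 2B4 of NK and memory-type CD8+ T cells, had 170 and 159 counts and stood at 2.08 and 2.01 per kb. Cd2 exceeded Cd244 per kb by a ratio of 101 ± 2.59 and Cd48 by 2.97 ± 0.440 (SD, n = 2). Whether reads of the human CD2 cDNA in the Cd8 locus add to the counts of mouse Cd2 was not tested. The remaining receptors, Slamf8 and Slamf9, known from myeloid cells, had 1 and 0 counts and 0 and 0 counts, all under the floor. The upper ends of the intervals were 0.339 CPM in replicate 1 and 0.236 CPM in replicate 2 for Slamf8. For Slamf9 they were 0.230 and 0.236 CPM.

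Sh2d1a encodes SAP, the adaptor known to link tyrosine motifs of SLAM receptors to Fyn, which was not tested here for the matches shown above. It had 631 and 756 counts, 37.7 CPM (34.9 to 40.8) in replicate 1 and 46.5 CPM (43.3 to 49.97) in replicate 2, higher in replicate 2 with intervals apart. Per kb, Sh2d1a stood at 6.85 and 8.45, above 63.4% of the genes ranked. Exons of Tenm1, on the opposite strand, share 1465 bases or 26.6% of the exon length of Sh2d1a, but Tenm1 had only 6 and 3 counts. If reads in the shared bases were set aside as ambiguous, the length open to counting is shorter, and over the unshared bases the level was 9.33 and 11.5 per kb, or 10.4 ± 1.54 (SD, n = 2).

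Sh2d1a is X-linked, and Xist differed between the libraries as given above. Among 206 X-linked genes with at least 500 counts, the median log2 ratio of replicate 2 to replicate 1 was 0.07, near the 0.08 of 7334 autosomal genes. The log2 ratio of Sh2d1a, 0.30, was above that of 92.2% of the X-linked and 94.6% of the autosomal genes. The part of the Xist difference in the ratio of Sh2d1a was not tested.

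Sh2d2a encodes TSAd, an adaptor of T cells that has an SH2 domain but is not a SAP homologue and is known to bind Lck. It had the highest counts of the 8 genes, 4244 in replicate 1 and 4637 in replicate 2, which are 254 CPM (246 to 261) and 285 CPM (277 to 294). Replicate 2 was the higher and the intervals did not overlap. Per kb, Sh2d2a stood at 42.7 and 48.1, above 94.2% of the genes ranked, and exceeded Sh2d1a by a ratio of 5.96 ± 0.388 (SD, n = 2). The SD of a ratio between genes does not cover the choice of length. With the length of the longest annotated transcript in place of all exons, the mean levels were 60.1 per kb for Sh2d2a and 15.3 for Sh2d1a.

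The SAP homologues were close to the floor. Sh2d1b1, which encodes EAT-2, the adaptor through which Slamf7 is known to signal in NK cells, had 8 counts in each library, and Sh2d1b2, which encodes the related adaptor ERT, had 4 and 1. These genes lie close to each other on chromosome 1 and share 13.4% and 13.1% of their transcript windows of 50 bases, so that the split of reads between them is uncertain. The ratio of Sh2d1a to Sh2d1b1 per kb was 40.1 ± 5.11 (SD, n = 2).

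**Figure D2:**
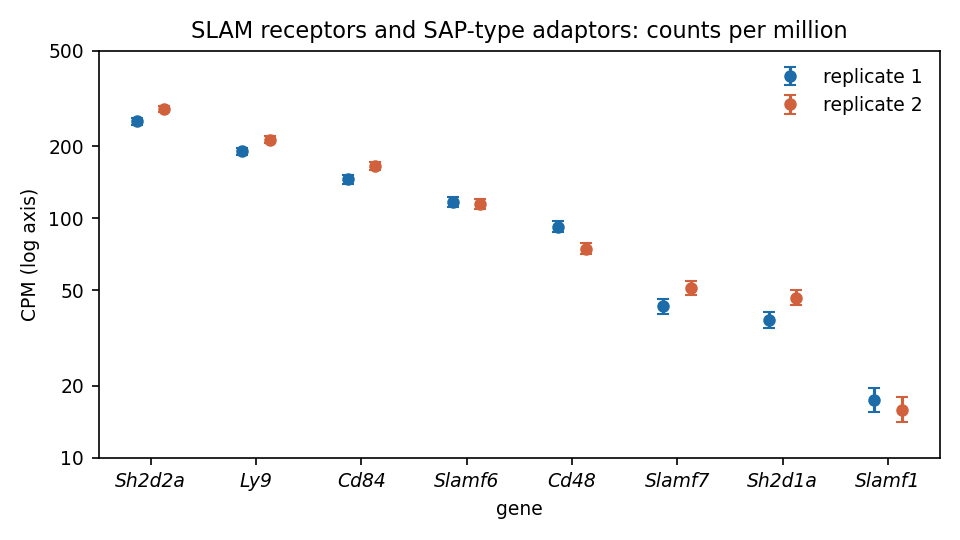
Level of each of the 8 genes in CPM on a log axis, with 1 point per library and vertical lines for the 95% Wilson interval, which covers counting error only. The intervals of the libraries overlap for Slamf1 and Slamf6 and lie apart for the other 6 genes, of which Cd48 is the one that is lower in replicate 2.

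Ordered by mean level per kb, the 8 genes ran from Cd48 (70.2 ± 10.4) through Ly9 (60.9 ± 4.77), Sh2d2a (45.4 ± 3.79), Cd84 (24.8 ± 2.31), Slamf6 (10.7 ± 0.145), Slamf7 (10.3 ± 1.26), and Sh2d1a (7.65 ± 1.13) to Slamf1 (2.70 ± 0.173; all SD, n = 2). The values of Cd48 and Ly9 overlapped between the libraries, as did those of Slamf6 and Slamf7, and the other 5 neighbouring pairs did not overlap. In replicate 2 alone, Ly9 stood over Cd48 and Slamf7 over Slamf6. With the length of the longest annotated transcript in place of all exons, Ly9 came before Cd48 and Sh2d1a before Slamf7. The largest step in the order was from Sh2d1a to Slamf1, a ratio of means of 2.83.

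**Figure D3:**
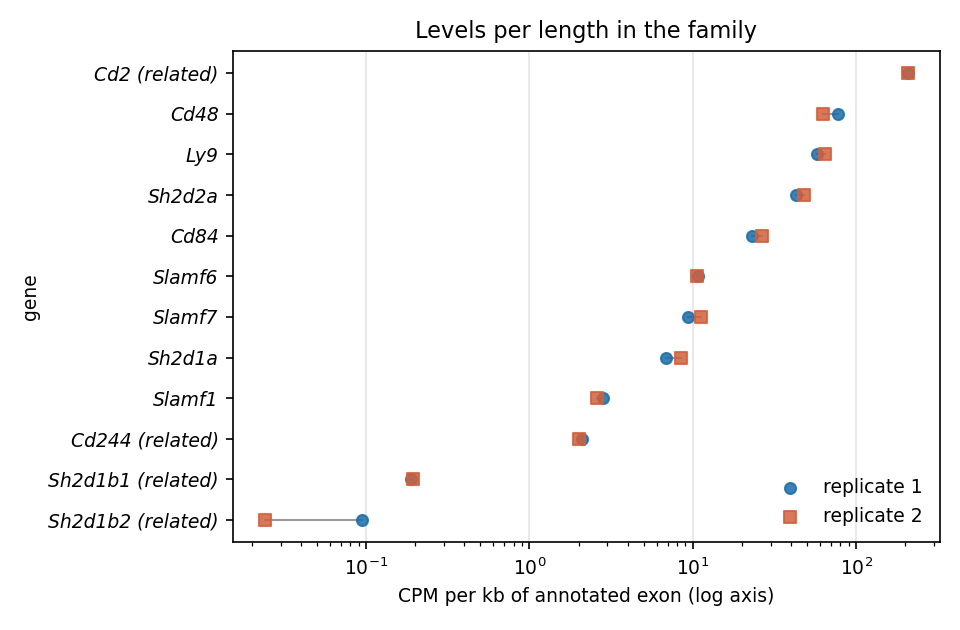
Levels of the 8 genes and of Cd2, Cd244, Sh2d1b1, and Sh2d1b2 in CPM per kb of exon on a log axis, with 1 point per library. Cd2 is the highest at 206 per kb, the 8 genes lie between 2.58 and 77.6, and the SAP homologues Sh2d1b1 and Sh2d1b2 are under 0.2.

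Summed over the 6 receptors, the level was 181.2 per kb in replicate 1 and 177.8 in replicate 2, or 179 ± 2.41 (SD, n = 2). Cd48 made up 42.8% and 35.3% of this sum, Ly9 31.7% and 36.1%, and Cd84 12.8% and 14.9%. These 3 receptors therefore held 87.3% and 86.3% of the receptor transcripts per kb. Slamf6 held 5.96% and 5.95%, Slamf7 5.17% and 6.27%, and Slamf1 1.56% and 1.45%. The summed receptors exceeded Sh2d1a by a ratio of 23.7 ± 3.83. With the longest transcript as length, the sum was 232.3 per kb and Sh2d1a stood at 15.3 per kb. In bulk RNA, fewer cells with a transcript and less of it per cell cannot be told apart, so these shares do not say which receptors are on the same cell.

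To ask which of these levels are firm beyond counting error, the libraries were compared by an exact binomial test on the counts of each gene, with Benjamini-Hochberg adjustment over 15949 genes. This compares 2 libraries of 1 condition, not conditions. When both a 2-fold difference and an adjusted p under 0.05 were asked for, 0 of the 8 genes differed, against 1.52% of the genes tested. On the adjusted p alone 6 of the 8 differed (6 also at an unadjusted p under 0.05), where the background was 16.3% of all genes tested and 26.8% of the 7756 genes with at least 500 counts over both libraries, which all 8 genes have. By the exact test of edgeR, with the biological coefficient of variation set to 0.1, 0 of the 8 differed on the adjusted p alone, where the background was 0.464%, and 0 also had an unadjusted p under 0.05. That setting is close to the 0.105 estimated from the same 2 libraries, so differences of usual size between them could hardly pass. The median size of the log2 ratio was 0.18 for the 8 genes, 0.17 for all genes tested, and 0.10 for genes with at least 500 counts.

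Cd48 was lower in replicate 2, with a log2 ratio of -0.30 (exact binomial test with Benjamini-Hochberg adjustment, adjusted p = 1.22e-06). Sh2d1a, Slamf7, Cd84, Sh2d2a, and Ly9 had log2 ratios of 0.30, 0.25, 0.19, 0.17, and 0.16, all higher in replicate 2, with adjusted p from 9.86e-07 for Sh2d2a to 0.00686 for Slamf7. Slamf1 (-0.13, adjusted p = 0.567) and Slamf6 (-0.03, adjusted p = 0.785) did not pass this test. The higher values in replicate 2 depended on the scaling. The median log2 ratio of all genes tested was 0.08 with totals on genes and -0.00 with TMM library sizes from edgeR. Of the genes that differed on the adjusted p alone 82.7% were higher in replicate 2 with the former and 48.1% with the latter. With TMM library sizes Cd48 (-0.38, adjusted p = 2.91e-10), Sh2d1a (0.22, adjusted p = 0.0408), and Sh2d2a (0.09, adjusted p = 0.0307) passed, and Ly9 (0.08, adjusted p = 0.133), Cd84 (0.11, adjusted p = 0.0526), and Slamf7 (0.17, adjusted p = 0.123) did not, though their ratios were still above 0. With DESeq2 size factors 4 of the 8 genes passed, Cd48, Sh2d1a, Sh2d2a, and Cd84, and without mitochondrial and ribosomal RNA genes in the totals 5 passed, Ly9 as well.

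**Figure D4:**
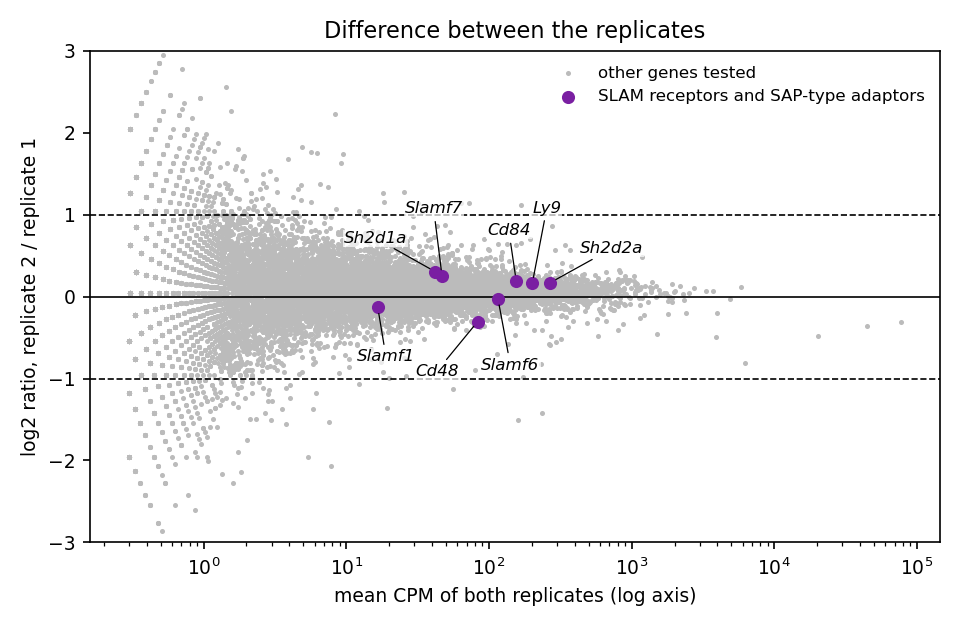
Log2 ratio of replicate 2 to replicate 1 against mean CPM (log axis) for the genes tested, with the 8 genes marked, and without 56 genes of a log2 ratio beyond 3 or at 0 in a library. Cd48, at -0.30, is the lowest of the 8 and Sh2d1a, at 0.30, the highest, and all 8 lie within 2-fold.

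The kinases and adaptors that carry signals from SLAM receptors and SAP were read as a list of 9 genes, and all 9 were over the floor in both libraries. They ranged from Malt1, the paracaspase that acts with Bcl10, at 8.66 per kb to Lck, the main Src kinase of T cells, at 277 per kb, with a median of 53.3 against 4.16 for all genes tested. Fyn, the kinase that SAP binds, had 6943 and 7828 counts and stood at 95.1 and 110.4 per kb, a ratio of 13.5 ± 0.579 to Sh2d1a (SD, n = 2). With the longest transcript as length, the mean levels were 126 per kb for Fyn and 15.3 for Sh2d1a. In this list 4 genes, Fyn, Lck, Vav1, and Nfkb1, were higher in replicate 2 on the adjusted p alone, by 0.15 to 0.22 on the log2 scale, against the background of 16.3% of all genes tested and 26.8% of those with at least 500 counts, and 0 reached 2-fold. With TMM library sizes 2 of the 9, Fyn and Lck, were higher in replicate 2 and 1 was lower. For Lck, a partner of TSAd, the ratio per kb to Sh2d2a was 6.10 ± 0.0244 (SD, n = 2).

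The phosphatases and inhibitory enzymes known to act on SLAM receptors without SAP were all 4 over the floor. They ranged from 16.3 per kb for Ptpn11, which encodes SHP-2, to 176 per kb for Ptpn6, which encodes SHP-1, with a median of 56.3. Ptpn11 and Inpp5d, which encodes SHIP-1, were higher in replicate 2 on the adjusted p alone, by 0.24 and 0.11 on the log2 scale, and the other 2 genes did not pass, beside the same background of 16.3% and 26.8%. With TMM library sizes Ptpn11 alone of the 4 passed. Ptpn6 exceeded Sh2d1a per kb by a ratio of 23.2 ± 2.76 (SD, n = 2), more than the ratio of 13.5 for Fyn. With the longest transcript as length, Ptpn6 stood at 214 per kb, Fyn at 126, and Sh2d1a at 15.3.

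A list of 12 genes was read for innate-like T cells, a fate that some SLAM receptors and SAP are known to promote. All 12 were over the floor. They ranged from 0.443 per kb for Il4, with 11 and 7 counts, to 135 per kb for Klf2, with a median of 13.01. Klf2 is on the list but is a factor of thymic exit and not a marker of innate-like T cells. Zbtb16, which encodes PLZF, had 305 and 351 counts and stood at 3.77 ± 0.452 per kb (SD, n = 2), between Sh2d1a and Slamf1. Eomes, a T-box factor of memory-type CD8+ T cells, had 3275 counts (195.7 CPM) in replicate 1 against 5760 (355 CPM) in replicate 2, a log2 ratio of 0.86, wider than that of any of the 8 genes. Cxcr3, Cd44, and Il2rb were also higher in replicate 2 on the adjusted p alone, by 0.36, 0.32, and 0.18, so that 4 of the 12 passed beside the background of 16.3% and 26.8%, and 0 reached 2-fold. With TMM library sizes the same 4 genes were higher in replicate 2 and Klf2 was lower. Cd1d1, which encodes the molecule that selects iNKT cells, had 426 and 360 counts, and Cd1d2 43 and 37.

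**Figure D5:**
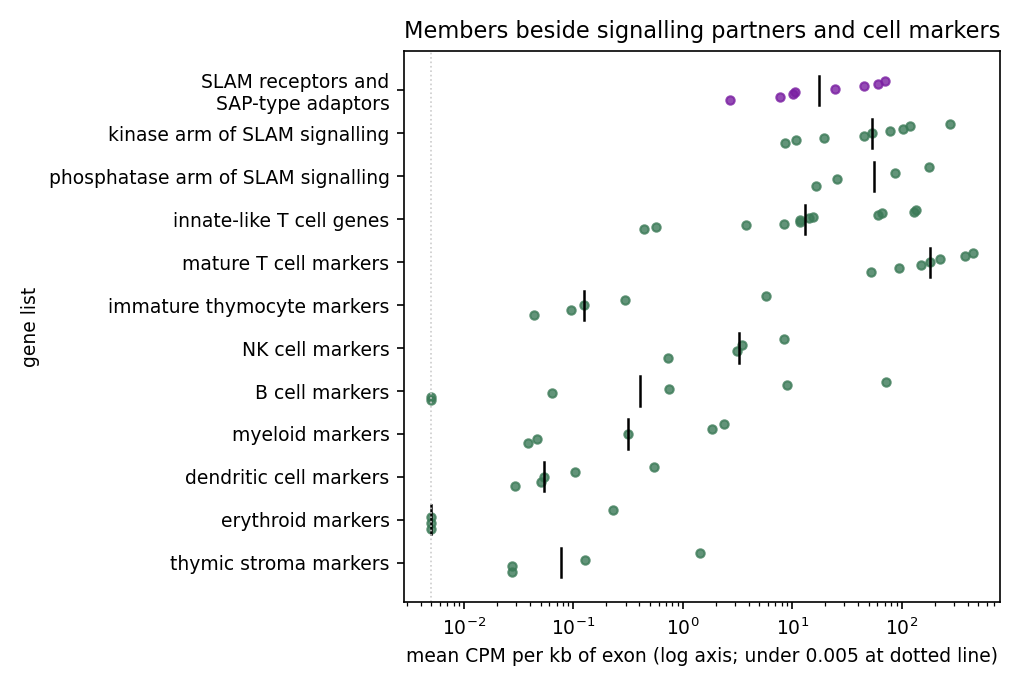
Mean level per kb of exon, on a log axis, of the 8 genes (purple) and of each gene in the lists of signalling partners, innate-like T cell genes, and cell markers (green), with a vertical bar at the median of each list and genes under 0.005 drawn on the dotted line. The signalling lists reach from 8.66 per kb for Malt1 to 277 for Lck, and Slamf1 at 2.70 and Sh2d1a at 7.65 lie under all of their genes. Over its unshared exon bases, not drawn here, Sh2d1a stood at 10.4 per kb.

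Because several of these receptors are also made by other blood cells, markers of those cells were read beside them. All 4 NK cell markers were over the floor, with 39.0 and 49.8 CPM in sum, and they differed between the libraries. Ncr1 had 45 and 112 counts, Klre1 171 and 224, and Klrb1c 370 and 446, all higher in replicate 2, while Klri2 had 67 and 27 and was lower. With totals on genes, 82.7% of all genes that differed on the adjusted p alone were higher in replicate 2. With TMM library sizes only Ncr1 and Klri2 of these 4 passed. The mature T cell markers went the other way, with 2519 and 2352 CPM in sum, and 4 of the 7, Cd3e, Cd3g, Trac, and Cd5, were lower in replicate 2 on the adjusted p alone, by log2 ratios of -0.12 for Trac to -0.20 for Cd5, and none was higher (5 lower with TMM library sizes). The part of NK-type cells, or of T cells with these receptors, in the levels of Slamf7, Cd244, and Sh2d1a was not tested. Of the 6 B cell markers, 4 were over the floor, with 146 and 151 CPM in sum, of which Ighm alone gave 133 and 136. Cd79b had 196 and 227 counts, Cd79a 21 and 15, Ms4a1 8 and 5, and Pax5 1 and 0. Of the 5 myeloid markers, 3 were over the floor, with 14.8 and 16.1 CPM in sum, most of it Csf1r with 163 and 191 counts. Cd68 had 51 and 47 counts, Itgam 34 and 18, Lyz2 0 and 2, and Adgre1 0 and 4. Of the 5 dendritic cell markers, 2 were over the floor, with 3.59 and 3.26 CPM in sum, and 3 of the 4 erythroid markers were at 0 in both libraries. Thymic stroma markers summed to 3.82 and 4.31 CPM. Of the 5 markers of immature thymocytes, 3 were over the floor, with 14.9 and 16.004 CPM in sum, most of it Dntt (224 and 211 counts). Rag1 had 8 and 19 counts, Rag2 4 and 1, Ptcra 2 and 2, and Cd4 12 and 27. Because the cells were sorted as CD4-, the low Cd4 counts do not bear on how many immature thymocytes were present.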

How the data were processed

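Per the labels and the study's methods, libraries were made with the NEBNext kit (E7530) and read as single ends of 50 bases. The authors mapped reads with TopHat 2.1.1 onto mm10 and deposited HTSeq 0.6.1 counts, raw whole numbers of reads per gene. The annotation and strand setting are not given in the sources used here. On genes lay 40.6% and 41.2% of the uniquely aligned reads. A share of 55.9% lay on no feature in both libraries and 3.52% and 2.92% were ambiguous, and these lines were kept out of totals and tests. Reads aligned to several places, listed apart as 27736636 and 24451411 entries, were not counted on genes, so genes that share sequence may be understated.

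From the deposited counts, CPM of the total on genes was computed, with mean and SD over 2 replicates. Exon lengths, positions, and coding sequences are those of GENCODE M21, in which 46395 symbols have a length. Genes with at least 10 counts over both libraries were compared with the exact binomial test of scipy 1.17.1 (two-sided). Its p-values were adjusted after Benjamini and Hochberg in statsmodels 0.14.6. The test was tried on simulated counts that held counting error alone, so that trial does not cover the further spread between real libraries. With 1 group, no quasi-likelihood test between conditions could be made. edgeR 4.0.16 estimated a biological coefficient of variation of 0.105 from both libraries. Alternatives were TMM factors (0.973 and 1.03), size factors from DESeq2 1.42.0 (0.993 and 1.01), totals that skip 393 genes of mitochondrial or ribosomal RNA, minimum counts of 1 or 100, edgeR's exact test, other lengths, and each replicate left out (Python 3.11.15, R 4.3.3). The members and gene lists were chosen with earlier results of these data known. Named genes are the 8 members, other SLAM, SAP, and CD1d genes, and, from the other lists, the lowest and highest genes per kb. Other list genes, Cd8a, Cd8b1, H2-Ab1, Xist, and Ddx3y were named after their values were seen. Values of some list genes are not reported here.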

Additional observations from a re-analysis of the deposited data

How the results depend on the processing

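The order of the 8 genes per kb was the same with TMM library sizes, DESeq2 size factors, or totals without mitochondrial and ribosomal RNA genes. With 1 replicate left out, 4 to 8 of the 8 genes kept their place, and with the longest transcript as length 4 did. The summed receptor level was 179.5 per kb, 177.8 to 181.2 with 1 replicate left out, 209.6 without mitochondrial and ribosomal RNA genes, and 232.3 with the longest transcript. Leaving out exon bases shared with opposite-strand genes, an alternative chosen after seeing the data, gave 180.5 and kept 6 of the 8 places. Levels in CPM of all 8 genes moved by more than 1 SD when mitochondrial and ribosomal RNA genes left the totals, and of 0 genes with TMM or DESeq2. Of all genes tested, 242 differed between the libraries at 2-fold, 55 with at least 100 counts, 60 with edgeR's exact test, and 2596 on the adjusted p alone (812 higher and 876 lower in replicate 2 with TMM library sizes). Among the 8 genes the number was 0, and 6 on the adjusted p alone. At 2-fold, 62.0% of the genes that differed were higher in replicate 2 and 49.5% with TMM library sizes. The comparison between libraries needs both, so no replicate could be left out of it. No paired analysis was possible because there is a single group.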
